A study of Mus musculus with 8 samples.

Results

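The genes examined here encode subunits of voltage-gated sodium channels: the pore-forming alpha subunit genes Scn2a, Scn1a, Scn3a, Scn8a, Scn9a and Scn7a, and the beta subunit genes Scn3b and Scn4b. They were taken by symbol from the deposited count matrix, 8 of its 54446 genes, and all 8 passed the filter on low counts. RNA-seq libraries were compared from 4 HOM and 4 WT samples of adult mice of strain C75BL6, as the labels spell it. HOM mice carry a gene-trap allele of Scn2a on both chromosomes, and WT mice are their littermates from HET breeding pairs. The trap is a cassette placed inside the gene to cut its transcript short, and the study's question is how neurons fare when NaV1.2, the channel that Scn2a encodes, is scarce. The sources used here give neither the position of the cassette nor the brain region nor the sex of the mice. Samples carry numbers in the labels, with no statement that they are different mice, so the p-values measure only the spread among these 8 libraries.

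An alpha subunit forms the whole sodium-selective pore and its voltage sensors, and beta subunits are single-pass membrane proteins that tune gating and placement of the channel. In the brain NaV1.1 (Scn1a) is best known from the axons of fast-spiking inhibitory neurons, NaV1.2 (Scn2a) and NaV1.6 (Scn8a) from the axon initial segment of excitatory neurons, and NaV1.3 (Scn3a) from immature neurons. Scn3a, Scn2a, Scn1a, Scn9a and Scn7a lie in this order on chromosome 2, with other genes between Scn2a and Scn1a. Scn8a is on chromosome 15, and Scn3b and Scn4b are on chromosome 9.

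The alpha subunit genes are close paralogs, so some short reads fit more than 1 of them. Over aligned coding bases Scn2a was identical to Scn3a at 83.6%, to Scn1a at 82.7%, to Scn9a at 78.1%, to Scn8a at 73.8% and to Scn7a at 65.2% of positions. Of all 50-base words in the annotated transcripts of a gene, 5.62% for Scn2a, 4.03% for Scn1a, 6.49% for Scn3a and 4.04% for Scn9a also occur in another of the 8 genes. The share was 0.0374% for Scn8a and 0 for Scn7a, Scn3b and Scn4b. At 100 bases the shares fell to 1.03% for Scn2a, 0.876% for Scn1a, 2.22% for Scn3a and 1.44% for Scn9a. The sources used here give neither the read length nor the handling of reads that fit several places, so a small part of these counts could be misplaced between the paralogs.

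The sequences just before the transcript starts are shown for Scn2a and Scn1a because these are the genes that passed the test. RefSeq on GRCm38.p6 gives an upstream start for Scn2a and an internal one, and the 250 bases before each start are printed 5′ to 3′. The first lies at chr2:65620519-65620768 on the plus strand.
Scn2a upstream start: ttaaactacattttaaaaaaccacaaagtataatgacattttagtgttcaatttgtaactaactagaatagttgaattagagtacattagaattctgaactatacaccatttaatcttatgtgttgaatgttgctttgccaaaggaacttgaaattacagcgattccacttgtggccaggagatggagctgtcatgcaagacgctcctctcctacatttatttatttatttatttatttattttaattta
The second lies at chr2:65668436-65668685 on the plus strand, inside the Scn2a span, and capitals mark its TATAAA word.
Scn2a internal start: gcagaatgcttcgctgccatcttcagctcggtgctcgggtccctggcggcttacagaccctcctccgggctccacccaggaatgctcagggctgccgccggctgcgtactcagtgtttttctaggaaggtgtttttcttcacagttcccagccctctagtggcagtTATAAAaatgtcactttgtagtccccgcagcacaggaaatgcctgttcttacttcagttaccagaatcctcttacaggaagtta
The third lies at chr2:66440838-66441087 and is read from the minus strand, the strand of Scn1a.
Scn1a start: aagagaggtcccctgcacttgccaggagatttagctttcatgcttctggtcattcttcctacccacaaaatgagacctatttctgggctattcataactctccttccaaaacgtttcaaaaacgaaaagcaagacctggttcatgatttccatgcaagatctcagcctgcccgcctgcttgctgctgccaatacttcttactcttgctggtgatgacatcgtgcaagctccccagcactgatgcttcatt
GC content was 29.6% before the upstream start of Scn2a, 53.2% before its internal start and 46.8% before the start of Scn1a, against a median of 52.4% over 32851 RefSeq promoters of mouse. Words were searched on both strands, and 6 of the 8 genes had promoter sequence, with 8 starts in all. The AP-1 word TGANTCA (in 6.75% of all promoters), the cAMP response element TGACGTCA (1.55%) and the E-box CACGTG (6.02%) were in none of the 8 windows. TATAAA (12.4%) was before the internal start of Scn2a only. The Egr word GCGNGGGCG (4.70%) was before the start of Scn7a and the upstream start of Scn8a, and not before the downstream start of Scn8a. A word is a description of the letters, and its absence says only that it is not in these 250 bases.

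Total counts per library were between 27993412 and 35339890 in HOM and between 29053382 and 37538988 in WT, so 1 CPM (the unit of level used here, counts scaled to the TMM-adjusted library size) stood for 27.9 to 37.0 reads. The label calls the cells neuron. Of 8 markers of neurons 7 were tested and Tubb3 stood at 0 in every library; their summed level was 9478 to 10112 CPM in HOM and 10608 to 11918 CPM in WT, without overlap, and 1 of the 7 fell (Snap25). Markers of other cells were also present: 6 of astrocytes summed to 3780 to 4634 CPM in HOM and 4717 to 5059 CPM in WT (1 fell, Aqp4), and 6 of oligodendrocytes to 3147 to 3846 CPM in HOM and 3651 to 5483 CPM in WT (none passed). Markers of choroid plexus, with Kcnj13 at 0 throughout, were at 17.6 to 230 CPM in HOM and 144 to 1685 CPM in WT, where WT replicate 4 was highest (2 of 7 fell). Of all genes tested, 2.94% fell. In such mixed tissue, fewer cells of a type and less RNA per cell cannot be told apart. Y-linked transcripts (Ddx3y, Eif2s3y, Kdm5d and Uty) had 2 counts in HOM replicate 4 and 4452 to 5984 counts in each of the other libraries.

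Scn2a and Scn1a were the members that passed the test, both lower in HOM, and no member was higher. Of the 17395 genes tested across the matrix, 5.40% passed, 2.94% lower in HOM and 2.47% higher (edgeR quasi-likelihood test, adjusted p under 0.05). Among the 8 members 2 fell and 0 rose, with a median log2 fold change of -0.18, against 0.00 over all genes tested. At an unadjusted p under 0.05 edgeR had 4 of the 8 lower and 0 higher, against 12.5% lower and 10.4% higher of all genes tested. After adjustment DESeq2 called 3 lower and 0 higher (6.06% and 4.71% of all genes), and limma-voom called 2 lower and 0 higher (3.00% and 2.49%). The CPM of HOM and WT did not overlap for 4 members, Scn2a, Scn1a, Scn9a and Scn4b, all 4 lower in HOM, whereas 14.1% of all genes tested showed no overlap in either direction and 7.47% none with HOM lower.

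**Figure D1:**
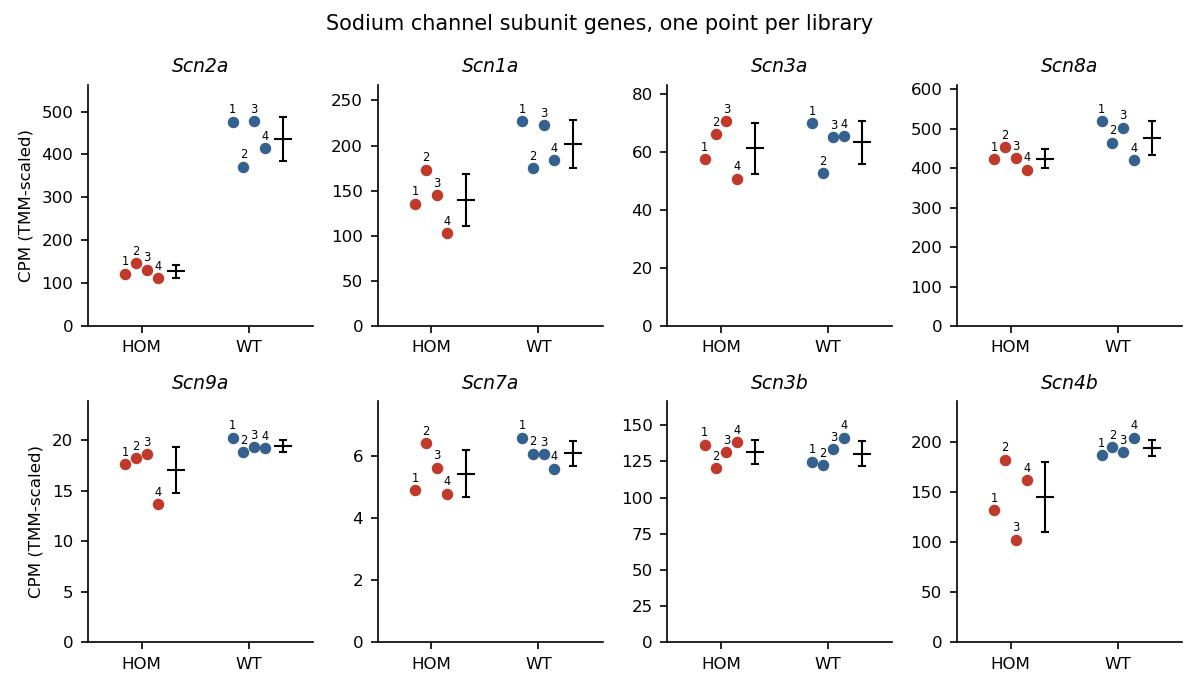
Level of each member in CPM (TMM-scaled, y axis from 0 in each panel) in HOM and WT libraries; points are libraries numbered by replicate, bars the mean and SD of 4 libraries. Scn2a averaged 128 CPM in HOM and 435 CPM in WT, and Scn3b had nearly the same mean in both.

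Scn2a (ENSMUSG00000075318) spans chr2:65620771-65767447 on the plus strand of GRCm38 and overlaps no other annotated gene. Its level was 122, 147, 131 and 112 CPM in HOM replicates 1 to 4, against 477, 371, 477 and 415 CPM in WT replicates 1 to 4. The highest HOM library lay far below the lowest WT library. HOM held 29.4% of the WT mean, a log2 fold change of -1.77 (95% interval -1.99 to -1.54, edgeR adjusted p = 1.16e-05). These values rest on 3950 to 4397 reads per HOM library and 11267 to 17639 reads per WT library. The gene total, taken to include reads from introns, cannot separate transcript before the cassette from transcript after it.

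Scn1a (ENSMUSG00000064329), on the minus strand at chr2:66270778-66440840, encodes NaV1.1, and 7.11% of its span is shared with the antisense gene Gm13630. It stood at 136, 173, 145 and 103 CPM in HOM replicates 1 to 4, and at 227, 175, 223 and 184 CPM in WT replicates 1 to 4. The genotypes did not overlap, but HOM replicate 2, at 173.2 CPM, nearly met WT replicate 2, at 174.6 CPM. Means were 139 ± 28.9 CPM in HOM and 202 ± 26.5 CPM in WT (SD, n = 4 each). The log2 fold change was -0.54 (SE 0.14, 95% interval -0.84 to -0.24, edgeR adjusted p = 0.0439), or 68.9% of the WT mean. The call lay at the edge of the threshold: it was lost without WT replicate 1, 3 or 4 and without HOM replicate 1, 3 or 4, with edgeR adjusted p between 0.0655 and 0.137, and fold changes between -0.58 and -0.40. It also ended with upper-quartile scaling, with library totals alone and with a 1 CPM minimum in 4 libraries.

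Markers of inhibitory neurons, in which NaV1.1 is best known, were measured beside Scn1a. Their summed level was 782 to 854 CPM in HOM and 969 to 1100 CPM in WT, without overlap, and none of the 8 stood at 0. Of the 8, 5 did not pass the test and 3 fell, against 2.94% of all genes tested. These 3 were Gad1, which makes the transmitter GABA, the neuropeptide gene Npy, and Lamp5, a marker of a class of cortical interneurons. Gad1 had 238 CPM in HOM and 332 CPM in WT, and it lies within 5 Mb of Scn2a. Lamp5 had 83.9 CPM in HOM and 150 CPM in WT. Pvalb, the calcium-buffer gene that marks fast-spiking cells, had a log2 fold change of -0.25 (edgeR adjusted p = 0.229). The others that did not pass were Gad2 (-0.24), Slc32a1 (-0.10), Sst (-0.10) and Vip (-0.03). HOM replicate 2 was highest of the HOM libraries for both Scn1a and the summed markers. HOM replicate 4, lowest for Scn1a, had 830 CPM of these markers. WT replicate 2, lowest for Scn1a among WT, had 1100 CPM, the highest sum. The part of these markers in the Scn1a difference was not tested.

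Scn8a (ENSMUSG00000023033, chr15:100869858-101045938, plus strand) encodes NaV1.6, which sets the low spike threshold of the distal axon initial segment. Its level was 424, 453, 426 and 396 CPM in HOM replicates 1 to 4, and 519, 465, 503 and 421 CPM in WT replicates 1 to 4. HOM replicates 1 to 3 stood above WT replicate 4, so the genotypes overlapped. Its log2 fold change was -0.17, with an SE of 0.08 and an edgeR adjusted p of 0.212, and with means of 425 ± 23.3 CPM in HOM and 477 ± 43.9 CPM in WT. The 95% interval of the change ran from -20.6% to -0.164% of the WT level. Its upper end depended on the setting: it lay above 0 in 13 of 19 alternatives, other scalings among them, and reached 0.06 on the log2 scale with library totals only.

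Scn3a (ENSMUSG00000057182, chr2:65457118-65567627, minus strand) is the nearest neighbour of Scn2a in the cluster and encodes NaV1.3, an alpha subunit prominent before birth. Libraries held 57.6, 66.2, 70.6 and 50.8 CPM in HOM replicates 1 to 4, and 70.0, 52.7, 65.1 and 65.5 CPM in WT replicates 1 to 4. The ranges nearly coincided. With means of 61.3 ± 8.83 CPM in HOM and 63.3 ± 7.42 CPM in WT, it had a log2 fold change of -0.05 with an SE of 0.11 (edgeR adjusted p = 0.838). Its 95% interval reached from -18.0% to 14.2% of the WT level, with an upper end of 0.19 on the log2 scale. That upper end depended on the setting. It was 0.10 without WT replicate 2, 0.26 with library totals only and 0.29 with WT and HOM replicate 4 left out together. The sign of this small value changed under several settings given in the closing section.

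Scn9a and Scn7a were the least abundant alpha subunit genes here. Scn9a (ENSMUSG00000075316, chr2:66480080-66634962, minus strand) encodes NaV1.7, best known from pain-sensing neurons. It stood at 17.7, 18.3, 18.7 and 13.7 CPM in HOM replicates 1 to 4, and at 20.3, 18.9, 19.3 and 19.2 CPM in WT replicates 1 to 4. Every HOM library was below every WT library, although HOM replicate 3 and WT replicate 2 were 18.7 and 18.9 CPM. The fold change was -0.19 on the log2 scale, with an SE of 0.10 (edgeR adjusted p = 0.280), and -0.08 without HOM replicate 4, the lowest library. Other genes, among them the antisense gene Gm13629, share 42.8% of the Scn9a span, so its counts are uncertain.

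Scn7a (ENSMUSG00000034810, chr2:66673425-66784914, minus strand) encodes a sodium channel of glia and of sodium-sensing neurons that responds to sodium concentration. Its level was 4.90, 6.40, 5.61 and 4.77 CPM in HOM replicates 1 to 4, and 6.57, 6.07, 6.05 and 5.58 CPM in WT replicates 1 to 4. HOM replicates 2 and 3 lay within the WT range. The log2 fold change was -0.17 (95% interval -0.44 to 0.10, edgeR adjusted p = 0.456; -0.09 without HOM replicate 4), on 169 to 243 reads per library.

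The beta subunits differed from each other. Scn3b (ENSMUSG00000049281, chr9:40269217-40291618, plus strand) encodes a beta subunit that binds alpha subunits without a disulfide bond. It stood at 137, 120.2, 131 and 138 CPM in HOM replicates 1 to 4, and at 125, 122, 133 and 141 CPM in WT replicates 1 to 4. The ranges overlapped almost fully. Between genotypes it differed by 0.01 on the log2 scale, with an SE of 0.07 (edgeR adjusted p = 0.933) and a 95% interval from -9.04% to 11.9% of the WT level.

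Scn4b (ENSMUSG00000046480, chr9:45138395-45154152, plus strand) encodes a disulfide-linked beta subunit known for its part in resurgent sodium current, and it is abundant in striatal projection neurons. Its level was 132, 182, 102 and 162 CPM in HOM replicates 1 to 4, and 186, 195, 189 and 204 CPM in WT replicates 1 to 4. All HOM libraries were below all WT libraries, and HOM libraries spread far more. Means were 144 ± 34.8 CPM in HOM and 193 ± 7.68 CPM in WT (SD, n = 4 each), a log2 fold change of -0.42 (95% interval -0.72 to -0.12, edgeR adjusted p = 0.0919). It passed the threshold without HOM replicate 2 (-0.54, edgeR adjusted p = 0.0284), with no filter (0.0488) and with DESeq2 (adjusted p = 0.0315). Without HOM replicate 3 it was -0.28 (edgeR adjusted p = 0.177), and without HOM replicate 1 it was -0.37 (0.248). The 7 markers of striatal projection neurons, none at 0, summed to 589, 709, 491 and 718 CPM in HOM replicates 1 to 4 and to 560, 601, 558 and 658 CPM in WT replicates 1 to 4. None of the 7 passed the test. In HOM, replicates 2 and 4 were high and replicate 3 low for both Scn4b and these markers, whereas across genotypes the marker sums overlapped. The part of tissue composition in the Scn4b difference was not tested.

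**Figure D2:**
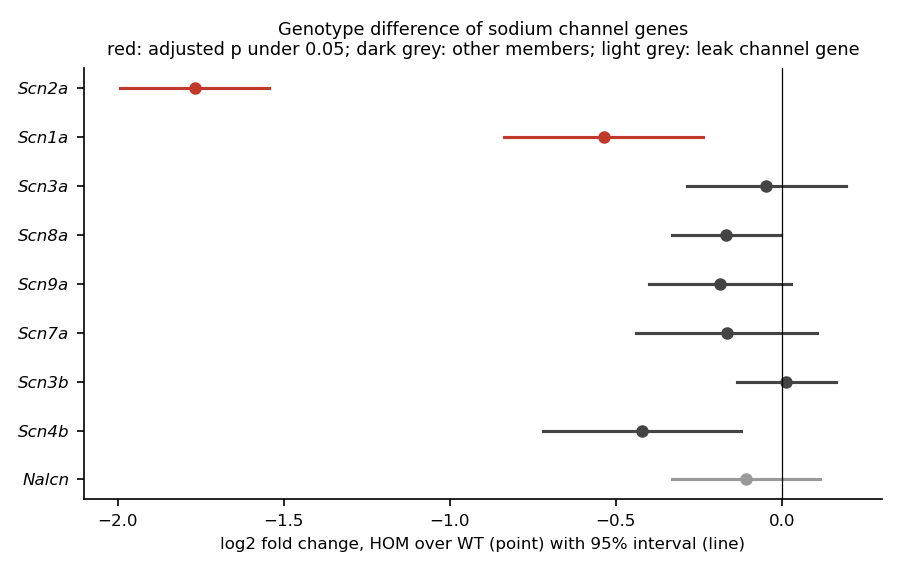
Log2 fold change of HOM over WT (points) with its 95% interval (lines) for the 8 members and the leak channel gene Nalcn. The intervals of Scn2a, Scn1a, Scn8a and Scn4b lay below 0, and of these Scn2a and Scn1a passed the adjusted threshold.

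Beyond the members, the sodium leak channel gene Nalcn had 113 CPM in HOM and 121 CPM in WT (log2 fold change -0.11). Scn4a, the muscle gene, failed the filter, and Scn2b is listed at 0 in every library and lies wholly within Gm10684, so it has no measured value here.

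Whether the RNA of another subunit stood higher in HOM was asked of each gene, and none was called higher. Read counts do not measure protein, channel placement or gating, so compensation at those levels was not tested. The 5 alpha subunit genes other than Scn2a all had lower means in HOM than in WT. Added as CPM per kb of exonic length, so that long and short genes count alike, they came to 45.7, 51.9, 47.9 and 40.2 in HOM replicates 1 to 4, against 61.4, 51.7, 59.4 and 50.7 in WT replicates 1 to 4. HOM replicate 2 stood above WT replicates 2 and 4, so the sums overlapped. Means were 46.4 ± 4.89 in HOM and 55.8 ± 5.39 in WT (SD, n = 4 each), 83.2% of the WT sum. With Scn2a included the sum of 6 was 56.5 ± 6.05 in HOM and 90.0 ± 9.20 in WT, 62.8% of the WT sum, and did not overlap. In CPM, the HOM mean was 307 below the WT mean for Scn2a and 120 below it for the other 5 together.

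The composition of the alpha subunit pool changed mainly through Scn2a. Its share of the 6-gene sum per exonic kb was 17.3%, 18.2%, 17.7% and 17.9% in HOM replicates 1 to 4, against 37.9%, 36.1%, 38.7% and 39.2% in WT replicates 1 to 4. The shares within each genotype were closer to each other than the levels were, and the genotypes lay 20.2 percentage points apart. Scn8a took 47.9% ± 2.67 of the sum in HOM and 33.7% ± 1.95 in WT, without overlap. Scn3a took 8.70% ± 0.686 in HOM and 5.65% ± 0.473 in WT, also without overlap. A share must rise when a large part of its total falls, and for neither gene was the level higher in HOM. Scn1a kept a like share, 21.9% ± 2.31 in HOM and 20.1% ± 0.606 in WT, and the genotypes overlapped. As ratios of per-kb levels, Scn8a over Scn2a was 2.70 ± 0.175 in HOM and 0.890 ± 0.0849 in WT, and Scn1a over Scn2a was 1.23 ± 0.125 in HOM and 0.530 ± 0.0163 in WT.

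Leaving Scn2a out of the total shows how the other alpha subunits stood to each other. Scn1a made up 26.6%, 29.9%, 27.2% and 23.0% of the 5-gene sum in HOM replicates 1 to 4, against 33.2%, 30.3%, 33.6% and 32.6% in WT replicates 1 to 4. It was the only one of the 5 whose share did not overlap between genotypes, with HOM replicate 2 and WT replicate 2 close together. Scn8a made up 58.3% ± 3.19 of that sum in HOM and 54.2% ± 1.94 in WT, Scn3a 10.6% in HOM and 9.12% in WT, and both overlapped. No p-value is given for these sums and shares, since their genes were chosen.

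**Figure D3:**
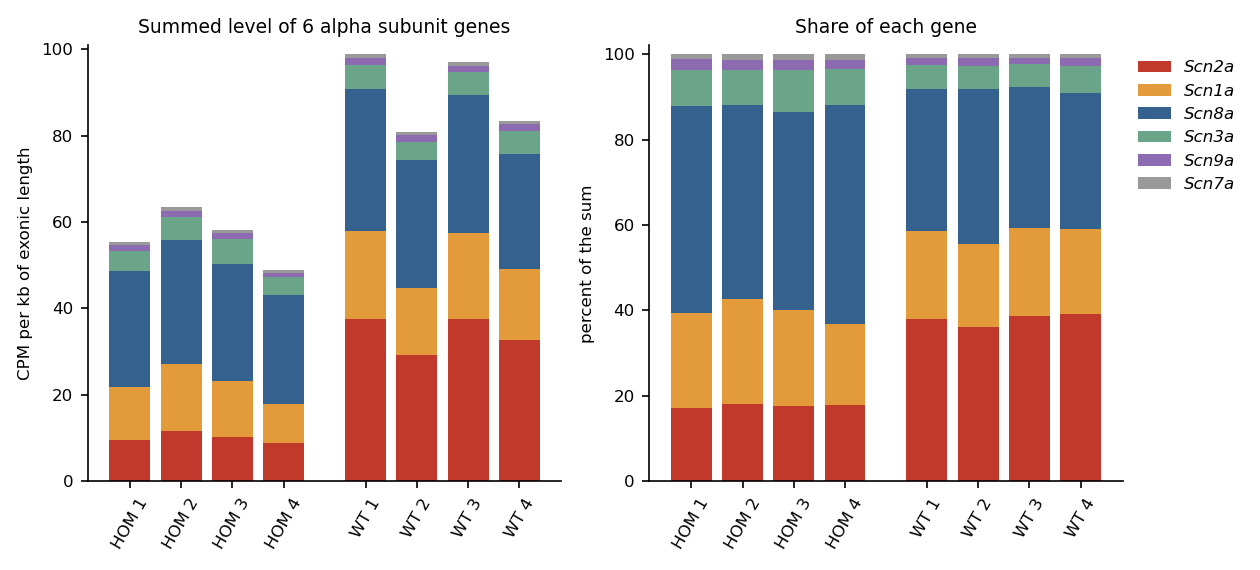
Level of the 6 alpha subunit genes in CPM per kb of exonic length (left, stacked) and each gene's percent of that sum (right), for 4 HOM and 4 WT libraries. Scn2a takes 17.3% to 18.2% of the sum in HOM and 36.1% to 39.2% in WT.

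The order of the levels per kb of exonic length differed between the genotypes. In HOM it ran Scn4b (29.0 CPM per kb), Scn8a (26.9), Scn3b (24.1), Scn1a (12.5), Scn2a (10.04), Scn3a (4.92), Scn9a (1.34) and Scn7a (0.739). In WT it ran Scn4b (38.8 CPM per kb), Scn2a (34.2), Scn8a (30.3), Scn3b (23.9), Scn1a (18.1), Scn3a (5.08), Scn9a (1.52) and Scn7a (0.827). In HOM the ranges of Scn4b, Scn8a and Scn3b overlapped as neighbours, as did those of Scn1a and Scn2a; in WT those of Scn4b, Scn2a and Scn8a did. The other neighbours were separated in every library. Because introns are taken to be counted too, the order was also taken per kb of gene span. There Scn2a was rank 4 in HOM and rank 3 in WT rather than rank 5 in HOM and rank 2 in WT.

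The sodium channel cluster on chromosome 2 runs from Scn3a to Scn7a, chr2:65457118-66784914, a stretch of 1328 kb with 19 annotated genes. Of these 9 were tested, 9 stood at 0 in every library, and 5 are members. The Scn3a span ends 53.1 kb before that of Scn2a, and the Scn1a span begins 503 kb after it. Scn2a lies on the plus strand and the other 4 channel genes on the minus strand. Apart from Scn2a and Scn1a, the 7 tested genes of the cluster had log2 fold changes between -0.19 and 0.08, none of which passed. Csrnp3, a nuclear protein gene next to Scn2a, had 119 ± 12.6 CPM in HOM and 136 ± 12.2 CPM in WT (SD, n = 4 each; -0.19, edgeR adjusted p = 0.229). Between Csrnp3 and Scn1a, the glycosyltransferase gene Galnt3 stood at 2.74 CPM in HOM and 2.70 CPM in WT, and the cilium gene Ttc21b at 22.2 CPM in HOM and 21.01 CPM in WT. Gm13629, which shares 63.1% of its own span with other genes, stood at 2.59 CPM in HOM and 2.72 CPM in WT.

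Within 5 Mb of either end of Scn2a, 48 other genes were tested and 3 passed, all lower in HOM, which is 6.25%, against 5.40% of all genes tested in either direction and 2.94% lower in HOM. At an unadjusted p under 0.05, edgeR had 8 lower and 0 higher (16.7% of the 48 lower, against 12.5% of all genes), and DESeq2 called 4 lower and 0 higher after adjustment (8.33% lower, against 6.06% of all genes). Besides Scn1a these were Klhl23, an adaptor of ubiquitin ligases, at 4054 kb, and Gad1 at 4786 kb. Klhl23 had 64.0 ± 1.76 CPM in HOM and 77.8 ± 2.89 CPM in WT, a log2 fold change of -0.28 with an SE of 0.06 (edgeR adjusted p = 0.0208), a call lost when WT replicate 3 or HOM replicate 1 or 3 was left out. Gad1 had 238 ± 18.7 CPM in HOM and 332 ± 13.3 CPM in WT (-0.48, SE 0.07, edgeR adjusted p = 0.00457), and other genes share part of its span. Leaving out HOM replicate 1 or 3, or WT replicate 3, brought the count to 1, and leaving out HOM replicate 2 brought it to 5. The median log2 fold change of the 48 was -0.08, with 34 below 0 and 14 above, against a median of 0.00 over all genes tested. Mice of both genotypes came from HET breeding pairs, so the trap and the chromosome 2 sequence linked to it cannot be told apart.

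**Figure D4:**
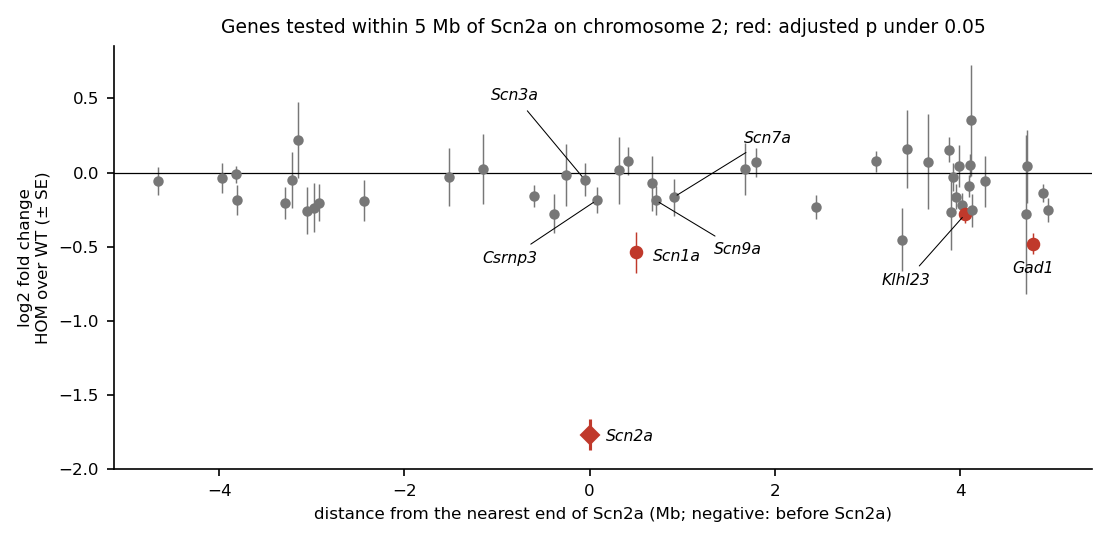
Log2 fold change of HOM over WT with its SE (y axis) against distance from the nearest end of Scn2a in Mb (x axis) for the 48 genes tested within 5 Mb, with Scn2a at 0; red marks adjusted p under 0.05. Scn1a, Klhl23 and Gad1 passed, and the other genes of the cluster lay between -0.19 and 0.08.

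Genes whose products bind, anchor or modify these channels were examined as a list of 28, all tested. Of the list, 1 rose and 1 fell (7.14%, against 5.40% of all genes tested), and the median log2 fold change was -0.11, with 22 below 0 and 6 above. At an unadjusted p under 0.05, edgeR had 9 of the 28 lower (32.1%, against 12.5% of all genes tested) and 3 higher (10.7%, against 10.4%). The CPM of HOM and WT did not overlap for 7 of the 28, against 14.1% of all genes tested. Both genes that passed the adjusted threshold encode intracellular FGF homologous factors, which bind the tail of the alpha subunit and alter its inactivation. Fgf13 had 126, 124, 131 and 125 CPM in HOM replicates 1 to 4, and 152, 152, 158 and 151 CPM in WT replicates 1 to 4. Its libraries were tightly grouped and did not overlap, for a log2 fold change of -0.28 with an SE of 0.05 (edgeR adjusted p = 0.0177). Fgf14 had 322, 268, 229 and 236 CPM in HOM replicates 1 to 4, and 227, 181, 189 and 145 CPM in WT replicates 1 to 4. HOM replicate 3 and WT replicate 1 were close, and the genotypes did not overlap (0.51, SE 0.13, edgeR adjusted p = 0.0472). The Fgf14 call held with WT replicate 1 left out and was lost with each of the other 7 libraries left out (edgeR adjusted p 0.0508 to 0.143), and its value was 0.30 once length trends were removed. The Fgf13 call was lost without WT replicate 3, or without HOM replicate 1 or 3 (edgeR adjusted p 0.0628 to 0.0687), and its value was -0.44 once length trends were removed. The adhesion gene Cntn1 (-0.27, edgeR adjusted p = 0.0639) and the microtubule gene Map1b (-0.30, edgeR adjusted p = 0.0859) came next and did not pass. Of the axon initial segment genes in the list, Ank3 (-0.05) and Nfasc (-0.08) had small differences. Sptbn4 (0.23, edgeR adjusted p = 0.112) and Nrcam (-0.23, edgeR adjusted p = 0.199) had larger ones in opposite directions, and neither passed. Leaving out WT replicate 3, or HOM replicate 1 or 3, thus left none of the list called, and leaving out replicate 4 of either genotype left 1.

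Within a genotype the alpha subunit genes tended to be high or low in the same libraries. HOM replicate 4 was the lowest HOM library for 6 of the 6 alpha subunit genes, and HOM replicate 2 was the highest for 4, Scn2a, Scn1a, Scn8a and Scn7a. In WT, replicate 2 was lowest for 4 of the 6 and replicate 1 highest for 5. Over the 8 libraries, Pearson's r of the deviations from the genotype means was between 0.46 and 0.94 for the 15 pairs of alpha subunit genes, with 0.94 for Scn2a and Scn1a. For the 13 pairs that include Scn3b or Scn4b it was between -0.86 and 0.12. The alpha subunit genes span 110510 to 176081 bases, against 22402 for Scn3b and 15758 for Scn4b, so this contrast also splits by gene length. The order was not particular to channel genes. Csrnp3, which spans 185780 bases, was lowest in HOM replicate 4 (104 CPM) and WT replicate 2 (122 CPM). It was highest in HOM replicate 2 (135 CPM) and WT replicate 1 (146 CPM). The part of gene length was not tested. These r describe 8 libraries whose depth and tissue content are shared by all genes, and HOM replicate 4 is the library with 2 Y-linked counts.

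**Figure D5:**
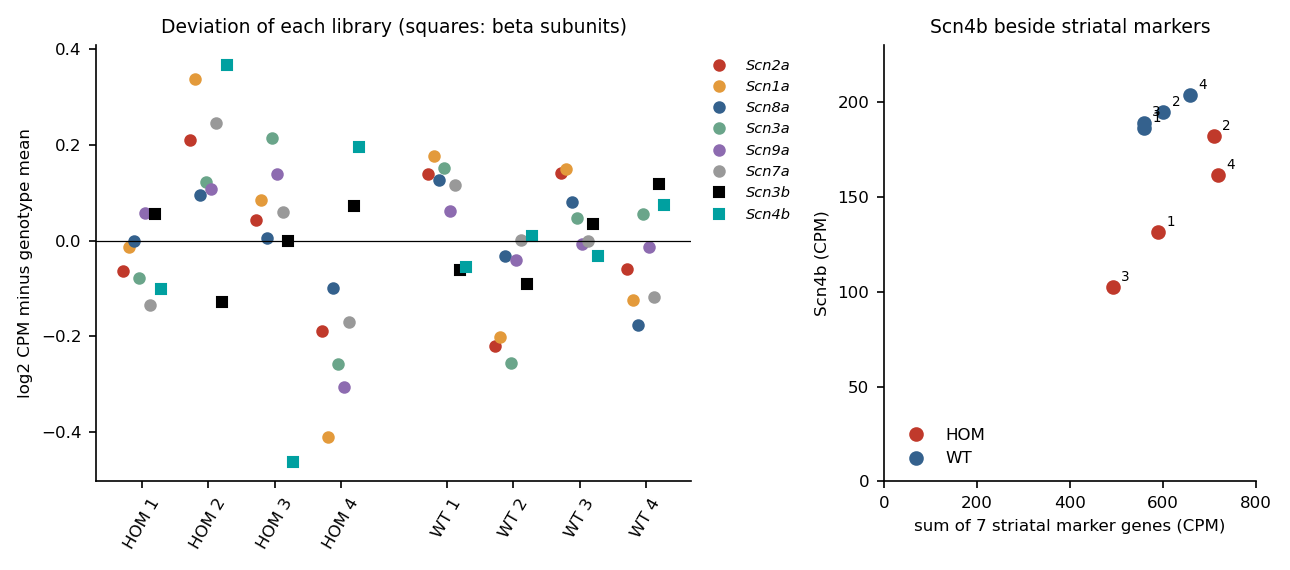
Left: log2 CPM of each member minus its genotype mean, for each HOM and WT library (circles alpha, squares beta subunits); right: Scn4b level against the summed level of 7 striatal markers, both in CPM, numbered by replicate. The 6 alpha subunit genes lie below 0 in HOM replicate 4, and Scn4b is higher in every WT library than in any HOM library, with marker sums of 491 to 718 CPM in HOM and 558 to 658 CPM in WT.

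Among 11288 protein-coding genes with a mean of at least 5 CPM, those whose log2 CPM followed Scn2a most closely over the 8 libraries were Egr3 (r = 0.991), Scrn1 (0.988), Egr2 (0.985), Sort1 (0.985) and Rnf115 (0.985). Egr3 and Egr2 encode transcription factors induced by neuronal activity, and Sort1 a sorting receptor. Once the genotype means were removed, r was 0.734 for Egr3, 0.833 for Scrn1, 0.516 for Egr2, 0.951 for Sort1 and 0.954 for Rnf115, so for Egr2 much of the likeness is the genotype difference itself. Egr3 stood at 99.2 ± 5.90 CPM in HOM and 174 ± 11.5 CPM in WT, and Sort1 at 432 ± 31.6 CPM in HOM and 598 ± 30.9 CPM in WT (SD, n = 4 each). Those most like Scn1a were Ccny (r = 0.997), Exph5 (0.996), Ppargc1a (0.994), Reps2 (0.993) and Gabrb2 (0.993). Their r of deviations was between 0.984 and 0.995. This is not a separate result, since they were picked for the highest r over the same libraries. Scn1a also varied much within genotypes, with deviations from -0.41 to 0.34 beside a log2 fold change of -0.54. Gabrb2, a GABA-A receptor subunit gene, had 118 ± 29.9 CPM in HOM and 171 ± 23.9 CPM in WT, and Ppargc1a, a regulator of mitochondrial genes, 46.3 ± 8.19 CPM in HOM and 62.0 ± 6.43 CPM in WT (SD, n = 4 each). Of these 5, Exph5 passed the test (log2 fold change -0.70, edgeR adjusted p = 0.0448), a call that held when replicate 2 of either genotype was left out and was lost with any other library left out (adjusted p 0.0584 to 0.143). The other 4 had edgeR adjusted p between 0.0527 and 0.0976.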

How the data were processed

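Whole-number read counts per Ensembl gene, not normalized, were deposited by the authors for 8 libraries. Libraries were stranded and paired-end, per the labels' protocols. The submitters' processing notes name FastQC 0.11.3 and, with no version, STAR, featureCounts, edgeR and the build GRCm38; the sources used here give no strand setting or annotation. Of 1351 protein-coding genes wholly within other genes, 95.1% stood at 0 in every library, against 13.4% of 20567 others. Counts are therefore taken to cover whole gene bodies, introns included, without regard to strand and with reads in overlaps dropped. Names and positions came from GENCODE M21, which lacks 37 of the 54446 identifiers.

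The 17395 genes that passed edgeR's filterByExpr (about 10 counts in 4 libraries, 15 in all) were tested in R 4.3.3 with edgeR 4.0.16 (quasi-likelihood F test, TMM scaling, Benjamini-Hochberg over all genes tested, threshold 0.05). DESeq2 1.42.0, limma 3.58.1 (voom), other scalings, filters and windows, the replicate number as a block, length trends (mgcv 1.9.3) and leaving out libraries were alternatives. No library pair agreed within sampling noise. Coding sequences of GENCODE M21 transcripts were compared with Biopython 1.88, and promoters were read from RefSeq.

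The members and lists were chosen with earlier results of these data known. Some genes and sequences are not reported here. Named beyond the 8 members were the 4 partner genes of smallest p, the genes from Scn3a to Scn7a and other called genes near Scn2a, and for Scn2a and Scn1a the 5 genes of highest r. Ank3, Nfasc, Sptbn4, Nrcam and Nalcn were named after their values were seen.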

Additional observations from a re-analysis of the deposited data

Results flagged for a closer look

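Of 58 sets of 4 libraries examined for a library standing apart, 3 held one whose gap to its nearest neighbour was large for the range of the set. Chance gives this in about 1 in 20 sets, so 3 of 58 is no more than chance gives. The share of Scn3a in the sum of 6 alpha subunit genes was 9.73% in HOM replicate 3, against 8.34% to 8.38% in the other HOM libraries. Its share in the sum without Scn2a was 11.8% in the same library, against 10.1% to 10.2% in the others; these shares have the same Scn3a level in them and are not separate observations. The ratio of Scn1a to Scn8a per kb of exonic length was 0.531 in WT replicate 2, against 0.618 to 0.626 in the other WT libraries. Scn1a was lowest among WT libraries there, at 175 CPM.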

How the results depend on the processing

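Scn2a passed in all 19 alternatives (log2 fold change -1.84 to -1.69), and Scn8a in none (-0.22 to -0.10). Scn1a kept its direction in all 19 and lost its call in 11: upper-quartile scaling (-0.51, edgeR adjusted p = 0.0520), library totals only (-0.47, 0.0594), at least 1 CPM in 4 libraries (-0.52, 0.0513), WT replicate 4 and HOM replicate 4 left out together (-0.45, 0.0657), the replicate block below, and 6 of the 8 left-out libraries (range over the 8 -0.65 to -0.40, adjusted p 0.0193 to 0.137). Over all 19 its adjusted p was 0.00425 to 0.137. The members called numbered 1 in each of these and 1 to 3 with a library left out.

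Scn3a changed sign with library totals only (0.0187), WT and HOM replicate 4 left out (0.0547) and length trends removed (0.0207), and ranged from -0.13 to 0.0498 with a library left out. Near 0 as well, sign changes with 1 library left out were seen for Scn3b (-0.0169 to 0.0646), Gm13629 (-0.171 to 0.0730, and 0.0246 without both replicates 4) and Galnt3 (-0.108 to 0.212).

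Genes called within 5 Mb of Scn2a numbered 3, but 1 without both replicates 4, 5 with length trends removed, 1 of 15 within 2 Mb (6.67%), 9 of 186 within 20 Mb (4.84%, against 5.40% of all genes) and 1 to 5 with a library left out. Partner genes called numbered 2, but 4 with library totals only, DESeq2 or length trends removed, 0 without both replicates 4 and 0 to 3 with a library left out. The sum of the other alpha subunits was 79.9% to 87.1% of WT and the Scn2a share -20.8 to -19.7 points in 13 of 13 alternatives.

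Over all genes, samples of the same number did not deviate together (r -0.20 to 0.05). Such an r cannot tell whether they shared a litter or a preparation. The replicate block called 1 member, 1 gene within 5 Mb and 1 partner, left Scn1a at -0.55 (adjusted p 0.0543) and called 364 genes in all, against 940. The total was 1873 with DESeq2, 1588 with length trends removed and 180 to 1187 with a library left out. Where a call was lost the cause was not tested. Scn7a, with 169 to 243 reads per library, is the member whose precision depth limits most.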

Other observations

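Set against marker sums, a comparison chosen after the values were seen, Scn2a stood at 1.30 ± 0.123 CPM per 100 CPM of neuronal markers in HOM and 3.85 ± 0.420 in WT (SD, n = 4 each), without overlap. Scn8a stood at 4.34 ± 0.177 in HOM and 4.22 ± 0.281 in WT, and Scn1a at 1.42 ± 0.265 in HOM and 1.79 ± 0.205 in WT, and both overlapped. Per 100 CPM of inhibitory markers Scn1a stood at 17.1 ± 3.38 CPM in HOM and 19.5 ± 3.52 CPM in WT, with overlap. Per 100 CPM of striatal markers Scn4b stood at 22.3, 25.7, 20.8 and 22.5 CPM in HOM replicates 1 to 4, against 33.3, 32.4, 33.9 and 31.0 CPM in WT replicates 1 to 4. On this scale the HOM libraries drew closer together than in CPM, and they remained below every WT library.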
